A study of Bos taurus with 12 samples.

Results

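Cloned cattle embryos were compared with fertilised embryos at the 8-cell stage, gene by gene, by RNA sequencing. The comparison sets clones made by somatic cell nuclear transfer (SCNT), where an egg stripped of its own chromosomes receives the nucleus of a body cell, against embryos made by in vitro fertilisation (IVF). Loci entered it where FPKM, a fragment count scaled by transcript length and by the mapped fragments of the library, was at least 1 in either group, which left 14332 of the 22445 loci in the table. Both groups are Holstein, and each library was made from a pool of 8 embryos that were lysed directly, with the cDNA amplified before library construction. The labels list 3 libraries for each group, 6 of the 12 in the series. The others are 3 libraries of SCNT embryos of the same stage overexpressing the histone demethylase KDM5B, and 3 of bovine fetal fibroblasts. The fibroblasts are taken as such from their titles and cell type labels, although their sample group label reads SCNT embryos. The labels name no allele, transgene or treatment for the IVF and plain SCNT groups, and do not say which cell line or animal gave the transferred nuclei.

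The deposited table gives 1 value per group and locus, the authors' mean. There is therefore no spread between libraries, no SD and no test, and every difference given here is a difference between 2 means without a replicate check. It carries 17643 Ensembl gene IDs and 4802 locus IDs of the authors' own (named BGI_novel). The file does not pair either kind with gene symbols, and they could not be looked up in the RefSeq gene table used, made for ARS-UCD2.0, whose Ensembl column holds 0 entries. Loci are therefore named by ID, what each one does is not given, and the embryos could not be checked against marker genes. In pooled embryos, fewer cells that express a locus and less RNA of it per cell cannot be told apart.

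In cattle the embryo's own genome is switched on in earnest around the 8-cell stage. Until then the embryo lives largely on RNA stored in the egg, and that store is broken down while new transcripts appear. A clone starts from the same egg store but has to read a nucleus that was set up for another cell type. Its RNA at this stage can thus hold egg transcripts, newly made embryonic transcripts and transcripts typical of the nucleus donor.

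Most loci differed in level between the groups, and more were lower than higher in the clones. Of the 14332 loci, 8897 (62.1%) had means that differed by 2-fold or more in log2(FPKM + 1), with 3454 (24.1%) higher and 5443 (38%) lower in SCNT. The other 5435 lay within 2-fold. The median level was 5.53 FPKM in IVF and 3.98 FPKM in SCNT, and the median SCNT minus IVF difference was -0.52 in log2. The middle 50% of loci had differences between -1.45 and 0.95, and 5% lay below -2.62 and 5% above 2.87. The balance of the counts depended on the common shift. After the median difference was subtracted from every locus, 4705 loci (32.8%) were at least 2-fold higher and 3324 (23.2%) lower, 56% in all.

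**Figure D1:**
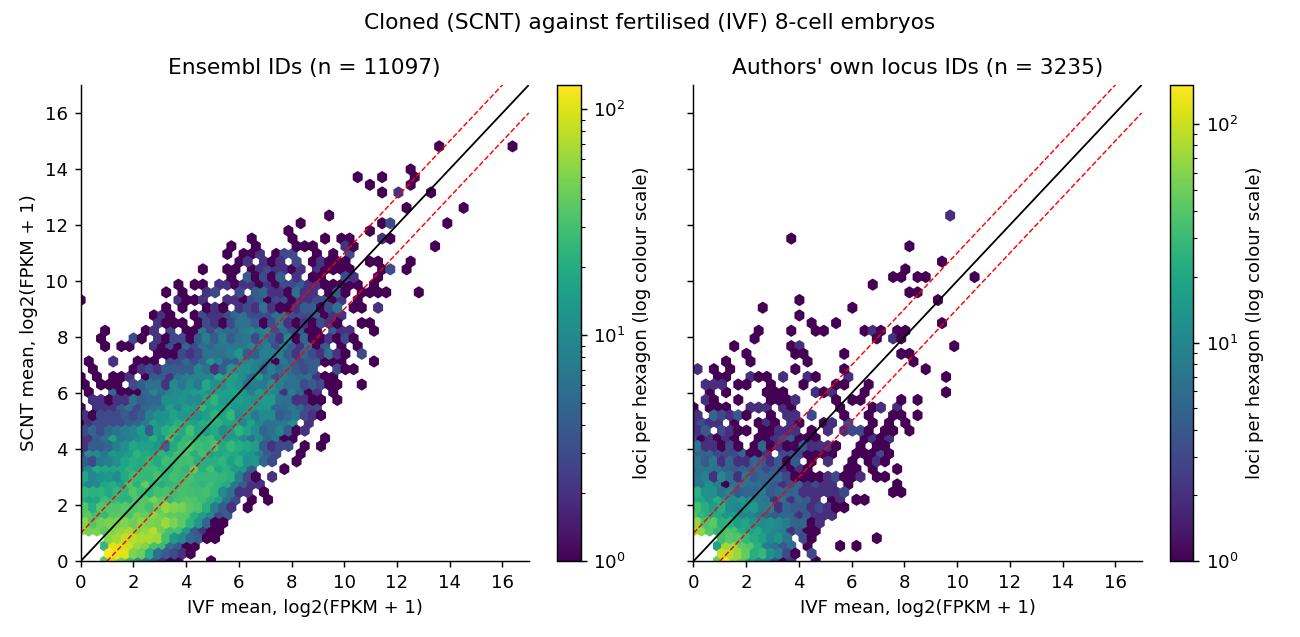
Each hexagon counts loci by their IVF mean (horizontal axis) and SCNT mean (vertical axis), both in log2(FPKM + 1), for 11097 Ensembl IDs (left) and 3235 of the authors' own loci (right). The black line marks equal means and the dashed red lines 2-fold. The cloud spreads well past the dashed lines on both sides, with 3454 loci above the upper line and 5443 below the lower one over both panels.

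Large differences leaned the other way from small ones. At 4-fold or more 1567 loci (10.9%) were higher and 1927 (13.4%) lower in SCNT. At 8-fold the counts were 642 (4.48%) and 342 (2.39%), and at 16-fold 240 (1.67%) and 34 (0.237%). The clones thus had more loci far above their IVF level than far below it, while moderately lower loci outnumbered moderately higher ones. The excess at 16-fold kept its direction in the scalings run, which were added after the data were seen. It was 226 against 51 with the columns rescaled to equal sums and 255 against 35 after quantile normalization. Centring gave 413 against 15, but it raises every difference and could only widen the excess. Rescaling without the most abundant IVF locus and centring on loci at a mean level of 5 or more were not run at 16-fold. The size of the excess depended on how low values were treated, with 674 against 368 at a pseudocount of 0.1 and 99 against 11 at a pseudocount of 5.

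**Figure D2:**
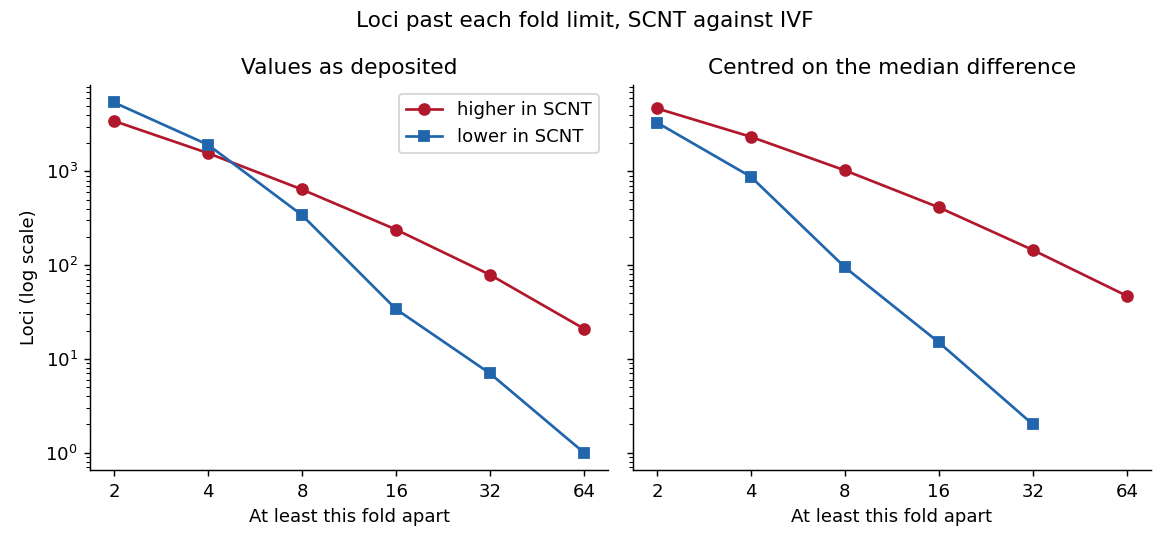
Number of loci (log axis) at least as far apart as the fold on the horizontal axis, higher (red circles) or lower (blue squares) in SCNT, for values as deposited (left) and after subtracting the median difference (right). As deposited the lines cross between 4-fold and 8-fold, and at 16-fold 240 loci were higher and 34 lower. The centred panel has no point for lower loci at 64-fold because their count was 0.

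The 240 loci at least 16-fold higher in SCNT had a median of 101 FPKM there and 1.97 FPKM in IVF. They were not all silent in IVF: 14 were listed at 0, 90 were under 1 FPKM, and 87 stood at 5 FPKM or more. Their median was 87.9 FPKM in SCNT embryos with KDM5B, where 235 of them reached 5 FPKM. In fibroblasts, which the choice of these loci did not use, the median was 6.48 FPKM, 144 (60.0%) reached 1 FPKM and 47 were listed at 0. Over all 14332 loci compared the fibroblast median was 4.38 FPKM, 64.3% reached 1 FPKM and 1960 were listed at 0. The 34 loci at least 16-fold lower in SCNT had a median of 131 FPKM in IVF and 4.34 FPKM in SCNT. All but 9 of them still reached 1 FPKM in SCNT, and 2 were listed at 0. In fibroblasts 24 of the 34 were listed at 0 and 6 (17.6%) reached 1 FPKM, and with KDM5B the median was 12.7 FPKM. Both sets were picked by their plain SCNT values, so their levels with KDM5B tend to be less extreme by construction. At the limit of 1 FPKM the far higher loci thus had fibroblast RNA about as often as all loci. Their fibroblast median was higher, however, and a larger share of them was listed at 0 there. The far lower loci had fibroblast RNA less often than all loci. That difference was not tested and rests on 34 loci. Of these 13 (38.2%) were locus IDs of the authors' own, beside 22.6% of all loci compared. The 34 all stood at 20.8 FPKM or more in IVF, so these shares are not matched for level.

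The typical difference varied along the range of expression, in values as deposited from below 0 to above 0. Loci were binned by their mean level, the average of log2(FPKM + 1) over the 2 groups. Among the 2027 loci with a mean level under 1 the median SCNT minus IVF difference was -0.78 in log2, with 19.8% at least 2-fold higher and 36.1% lower. It was -0.64 among 3812 loci from 1 to 2, and -0.56 among 1892 loci from 3 to 4. From 5 to 6 it was -0.05 (1067 loci). From 6 to 8 it was 0.19, with 34.2% higher and 30.8% lower of 1104 loci. At a mean level of 8 or more it was 0.65, with 171 of 393 loci higher and 87 lower. As deposited, lower loci thus outnumbered higher ones among weakly expressed loci and the reverse held among the most strongly expressed ones. The signs depended on scaling. After centring, 652 loci under a level of 1 were at least 2-fold higher and 103 lower, and at 8 or more 207 were higher and 62 lower. After quantile normalization strongly expressed loci were lower in SCNT too, with a median of -0.14 at a level of 6 or more and -0.41 under 2. With columns rescaled to equal sums without the most abundant IVF locus, an alternative added after the data were seen, these medians were -0.0602 and -0.96. Between loci at a level of 6 or more and loci under 2 the medians differed by 1.01. The size of that contrast depended on the floor of 1 FPKM. Without the floor the median was -0.0566 for loci under 2 and again 0.30 at 6 or more. The loci so added are under 1 FPKM in both groups and cannot reach 2-fold at a pseudocount of 1.

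That trend depended on which values set the level. Ranked by the IVF mean alone it turned, to a difference of -1.25 between the same classes, and by the SCNT mean alone it was 2.33. Each of these leans by construction, since a locus picked for a high value in 1 group tends to be lower in the other. Ranked by fibroblast level, which enters neither group, it was 1.18. The medians were then 0.30 for loci at 6 or more and -0.88 for loci under 2. Ranked by the level in SCNT with KDM5B it was 2.198. Both rankings were added after the data were seen. Clone RNA can hold transcripts typical of the nucleus donor, and whether these rankings lean toward SCNT as well was not tested. The spread was wide at every level, with the middle 50% of loci covering 1.95 log2 units under a level of 1 and 3.03 units from 6 to 8. Library depth, which sets how well weak loci are measured, is unknown for group means, and its part in the trend was not tested.

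**Figure D3:**
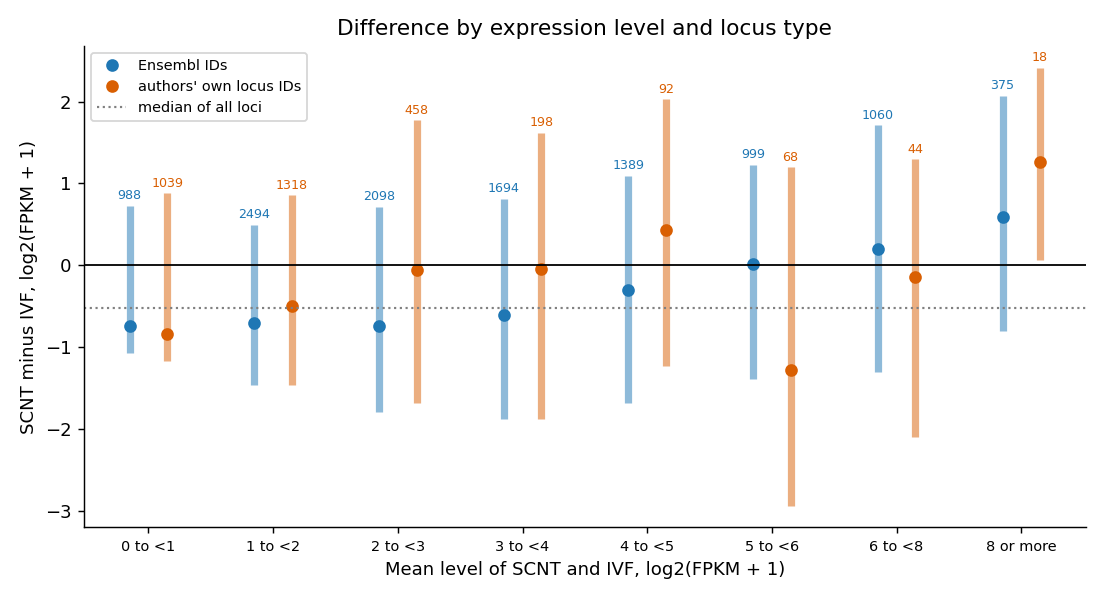
Median (points) and interquartile range (bars) of the SCNT minus IVF difference in log2(FPKM + 1), by the mean level of the 2 groups, for Ensembl IDs (blue) and the authors' own loci (orange), with the number of loci above each bar. The dotted line is the median over all loci, -0.52. Ensembl medians go from -0.75 under a level of 1 to 0.59 at 8 or more, while the authors' own loci show no steady course, with -1.29 from 5 to 6.

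Values of equal rank in the 2 columns can also be compared without matching loci. This describes the same columns at the same scaling and is not a separate check of the trend. At rank 1 IVF was ahead, with 94337 FPKM against 30632 FPKM in SCNT. At rank 100 the value was 857 FPKM in IVF and 1316 FPKM in SCNT, and at rank 500 it was 219 and 298 FPKM. At rank 2000 the values nearly met, at 49.0 FPKM in IVF and 48.4 in SCNT. Below that IVF was ahead, with 4.21 against 2.96 FPKM at rank 8000 and 1.19 against 0.787 at rank 12000. Accordingly 144 loci exceeded 1000 FPKM in SCNT and 79 in IVF, while 11262 reached 1 FPKM in SCNT and 12582 in IVF. The plain SCNT column listed 3430 of all loci at 0, and IVF 2722. In SCNT embryos with KDM5B 2151 loci were listed at 0 and 12121 reached 1 FPKM. The plain SCNT column thus held more loci of very high level and fewer detected loci than IVF. Fewer loci at 0 than in IVF were listed with KDM5B. Library depth is unknown, and its part in these counts was not tested.

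At the very top IVF was the more concentrated column. Its most abundant locus took 12.2% of the summed FPKM, against 3.46% for that of SCNT. The 10 most abundant loci of each column took 25.2% in IVF and 17.8% in SCNT, and the top 100 took 46.3% and 42.8%. With 500 loci the order was reversed, 66.8% in IVF and 69.9% in SCNT, and with 1000 it was 76.7% and 81.0%. Summed over all loci the columns held 774679 FPKM in IVF and 885032 in SCNT.

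**Figure D4:**
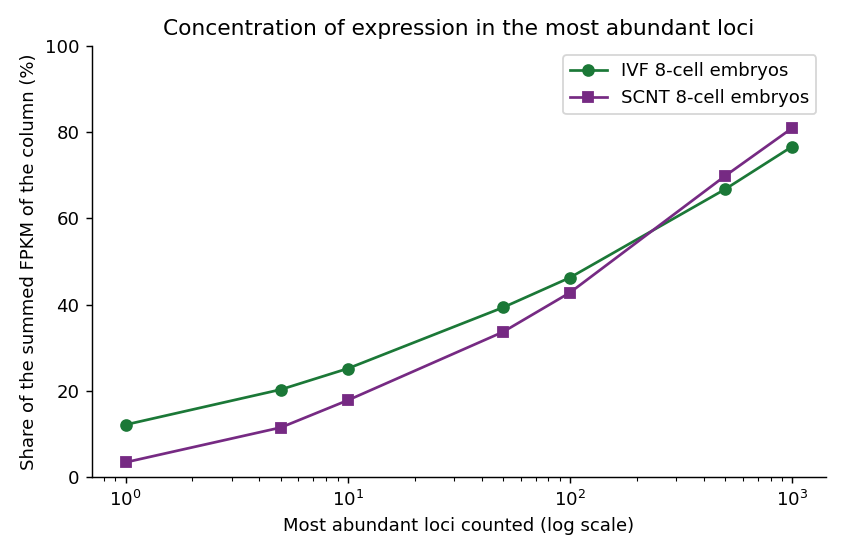
Share of the summed FPKM of a column (vertical axis, %) taken by its most abundant loci, against the number of loci counted (log axis), for IVF (green circles) and SCNT (purple squares). IVF starts higher, at 12.2% against 3.46% for 1 locus, and the lines cross between 100 and 500 loci.

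The lists of most abundant loci overlapped in part. Of the 10 most abundant loci of each column 6 were shared, of the top 100 40, and of the top 1000 518 (51.8% of each list). Among the IVF top 100, 48 were lower in SCNT by 2-fold or more and 14 higher. Among the SCNT top 100, 73 were at least 2-fold higher than in IVF and 6 lower. Lists picked by 1 column lean toward that column, so the counts describe the lists and are not a test.

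The same locus led both groups. ENSBTAG00000038488.2 stood at 94337 FPKM in IVF and 30632 FPKM in SCNT, 3.08 times lower in the clones, and at 21778 FPKM with KDM5B and 2520 FPKM in fibroblasts. The next 2 of IVF were also lower in clones and ranked further down there. ENSBTAG00000034346.2 held 24421 FPKM in IVF and 5808 FPKM in SCNT, where it ranked 14. ENSBTAG00000012184.2 held 13889 and 4425 FPKM, ranking 19 in SCNT. ENSBTAG00000027348.3, of rank 5 in IVF, held 11949 FPKM in IVF and 2414 FPKM in SCNT. ENSBTAG00000034346.2 and ENSBTAG00000027348.3 were listed at 0 in fibroblasts, and ENSBTAG00000012184.2 stood at 31.1 FPKM there. These 3 abundant IVF loci were thus 3.14 to 4.95 times lower in clones than in IVF embryos.

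The other leading loci of the clones stood above their IVF level. ENSBTAG00000043584.1, of rank 4 in IVF, held 12983 FPKM there and 28224 FPKM in SCNT, a ratio of 2.17. ENSBTAG00000043550.1 held 6511 FPKM in IVF and 15241 FPKM in SCNT, a ratio of 2.34. ENSBTAG00000005654.3 ranked 25 in IVF with 2909 FPKM and 4 in SCNT with 14208 FPKM, a ratio of 4.88. These 3 loci also had fibroblast RNA, at 1543, 1194 and 2572 FPKM. ENSBTAG00000039870.2 went with them in direction but was listed at 0 in fibroblasts. It held 7187 FPKM in IVF and 13790 FPKM in SCNT, a log2 difference of 0.94, within 2-fold.

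**Figure D5:**
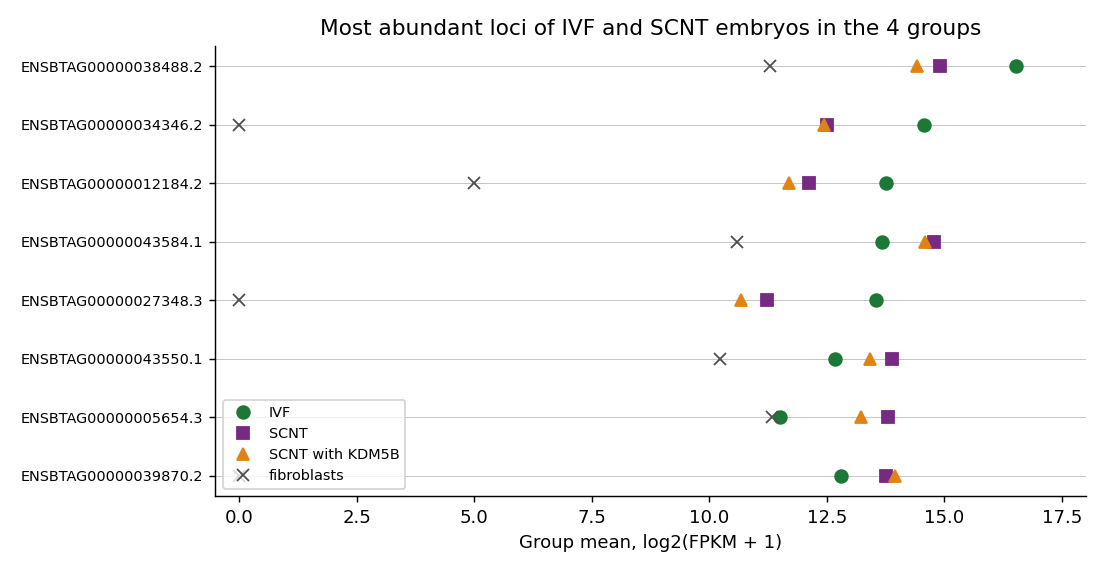
Group means in log2(FPKM + 1) (horizontal axis) of the 8 loci that are among the 5 most abundant of IVF or of SCNT embryos, with IVF as circles, SCNT as squares, SCNT with KDM5B as triangles and fibroblasts as crosses. In 4 loci the SCNT mark lies left of the IVF mark and in 4 right of it, and the crosses lie at 0 in 3 loci.

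The loci with the largest differences were not the most abundant ones. Among Ensembl IDs at 5 FPKM or more in the higher group, ENSBTAG00000038783.2 had the largest difference upward. Its IVF mean was listed at 0, and its means were 648 FPKM in SCNT, 727 FPKM with KDM5B and 509 FPKM in fibroblasts. The IVF mean of ENSBTAG00000039456.2 was 0.807 FPKM, and its other means were 323 FPKM in SCNT, 339 FPKM with KDM5B and 335 FPKM in fibroblasts. In both, the 3 columns other than IVF were close to each other. ENSBTAG00000044183.2 had the next largest difference among Ensembl IDs at 100 FPKM or more, and a different profile. It held 0.66 FPKM in IVF and 223 FPKM in SCNT, was listed at 0 in fibroblasts and stood at 59.0 FPKM with KDM5B. The largest differences downward were those of ENSBTAG00000037881.1, with an IVF mean of 562 FPKM and an SCNT mean of 15.9 FPKM, and ENSBTAG00000001812.5, with 676 and 21.0 FPKM. Both were listed at 0 in fibroblasts. They carry the same value of 73.9 FPKM in the KDM5B column and are not treated as independent examples.

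Of the 14332 loci, 3235 were the authors' own, with no Ensembl ID. They were weakly expressed, with a median of 1.78 FPKM in IVF and 1.36 FPKM in SCNT, against 8.32 and 6.01 FPKM for Ensembl IDs. They took 4.49% of the summed FPKM in IVF and 5.98% in SCNT. Pooled over all levels they differed between embryos about as often as all loci: 2046 (63.2%) were at least 2-fold apart, beside 62.1% of all loci and 61.7% of Ensembl IDs. Of the 2046, 822 were higher and 1224 lower in SCNT, a share higher of 40.2% beside 38.8% over all loci. That balance turned after centring, with 1125 higher and 627 lower (64.2% higher, beside 58.6% over all loci). It was near even at a 4-fold limit, with 333 higher and 329 lower. The median differences were -0.55 for the authors' own loci and -0.52 for Ensembl IDs.

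Within a range of expression the 2 kinds of locus stood further apart. In every bin of mean level a larger share of own loci than of Ensembl IDs was at least 2-fold apart. Under a level of 1 the shares were 61.1% and 50.4%, from 2 to 3 68.1% and 65.7%, and from 5 to 6 82.4% and 60.8%. From a mean level of 2 to 3, the 458 own loci had a median difference of -0.05, with 152 higher and 160 lower. The 2098 Ensembl IDs of that range had a median of -0.74, with 442 higher and 937 lower. From 5 to 6 the order was the other way, with -1.29 for 68 own loci, 38 of them lower, and 0.01 for 999 Ensembl IDs. The order changed between neighbouring bins of few own loci. Own loci stood above Ensembl IDs from 4 to 5 (0.42 against -0.31, 92 own loci) and at 8 or more (1.26 against 0.59, 18 own loci). From 6 to 8 they stood below (-0.15 against 0.20, 44 own loci). The middle 50% of own loci was wider in every bin under a level of 8. From 2 to 3 and from 5 to 6 it covered 3.46 and 4.13 log2 units, against 2.51 and 2.62 for Ensembl IDs. At 8 or more it was narrower, at 2.35 against 2.87.

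The largest differences among the authors' own loci exceeded those of Ensembl IDs in the downward direction. These IDs were chosen by that size, after their values were seen. BGI_novel_G001648 stood at 130 FPKM in IVF and 0.663 FPKM in SCNT, a ratio of 196, and BGI_novel_G002865 at 71.0 and 0.437 FPKM, a ratio of 163. These ratios are of plain FPKM over means under 1 FPKM. In log2(FPKM + 1), the measure of the ranking, the 2 loci differed by -6.30 and -5.65. Neither had any fibroblast FPKM listed, and with KDM5B they stood at 4.02 and 3.12 FPKM. In the other direction BGI_novel_G004468 held 12.3 FPKM in IVF and 2819 FPKM in SCNT, where it ranked 30 among all loci. It stood at 683 FPKM with KDM5B and was listed at 0 in fibroblasts. The SCNT mean of BGI_novel_G004212 was 110 FPKM, while IVF and KDM5B means were listed at 0. The last 2 were thus higher in plain clones than in any other group.

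The differences of the authors' loci with neighbouring numbers were moderately correlated. Over 2228 pairs of consecutive numbers Pearson's r of the SCNT minus IVF difference was 0.39 and Spearman's rho 0.39. These are correlations across loci, which are not independent, and the source does not say what the numbers stand for. Of the 20 own loci with the largest differences downward, 7 carry numbers from BGI_novel_G002843 to BGI_novel_G002862. BGI_novel_G002865, named above, lies just past this run, outside the window used to find it, and is not a clearly separate example. The 20 own loci with the largest differences upward showed no such run, with at most 2 in any window of that width. Of the 20 loci with those numbers 19 entered the comparison, 15 were lower in SCNT by 2-fold or more, 14 of them by 4-fold or more, and 0 were higher. Their median was 19.5 FPKM in IVF (1.21 to 227), 1.63 FPKM in SCNT (0 to 11.9) and 3.42 FPKM with KDM5B (0.317 to 20.8). In fibroblasts 16 of the 19 were listed at 0, and the highest stood at 0.517 FPKM. This run was picked for its low values, so its counts carry no test, and whether the loci are parts of 1 transcript or separate ones was not tested.

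Loci present in 1 embryo type and nearly absent from the other were few. In IVF 473 loci reached 5 FPKM while their SCNT mean stayed under 1, 6.34% of the 7464 that reached 5 in IVF. The reverse held for 419 loci, 6.39% of the 6558 that reached 5 in SCNT. Of the loci of IVF, 390 of the 473 stood under 10 FPKM there and 1 at 100 or more, while the SCNT class reached higher, with 219 of 419 under 10 FPKM and 8 at 100 or more. At a floor of 10 FPKM the counts were 83 for IVF and 200 for SCNT. Loci at 5 FPKM or more and listed at 0 in the other group numbered 10 for IVF and 34 for SCNT. BGI_novel loci were 30.7% of the 473 and 40.8% of the 419, beside 22.6% of all loci compared. These shares are not matched for level, since both classes had to reach 5 FPKM and all loci only 1 FPKM. The share of BGI_novel loci varied with level, with 1318 of 3812 loci from a mean level of 1 to 2 and 198 of 1892 from 3 to 4.

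The groups that did not enter the comparison gave these classes different levels. Loci at least 2-fold higher in SCNT had a median of 2.50 FPKM in IVF and 16.8 in SCNT. In fibroblasts their median was 6.58 FPKM, with 68.2% at 1 FPKM or more. Loci at least 2-fold lower had medians of 9.41 FPKM in IVF and 1.69 in SCNT, and 1.85 FPKM in fibroblasts, with 54.3% at 1 or more. Over all 14332 loci the fibroblast median was 4.38 FPKM, with 64.3% at 1 or more, and loci within 2-fold had 5.89 FPKM and 71.8%. In SCNT embryos with KDM5B the higher loci had a median of 17.6 FPKM and the lower ones 2.52, beside 16.8 and 1.69 FPKM in plain SCNT. Of the lower loci 70.5% reached 1 FPKM with KDM5B and 60.6% in plain SCNT, beside 81.1% and 78.6% of all loci. The lower loci were picked for low plain SCNT values, so another clone column tends to be higher there by construction. Over all loci the medians were 4.92 FPKM with KDM5B and 3.98 FPKM in plain SCNT. Of the 3 classes the lower loci thus stood furthest from all loci in their share with fibroblast RNA.

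The floor of 1 FPKM cuts through a dense part of the range. Just inside it, 363 loci had a higher group mean of 1 to 1.1 FPKM, with a median difference of -0.54, and 78 were at least 2-fold apart. Just outside, 366 loci from 0.9 to 1 FPKM had a median of -0.48 and none could reach 2-fold at a pseudocount of 1. Of the 8113 loci left out, 1422 were listed at 0 in both groups.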

How the data were processed

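The values are FPKM that the authors deposited in 1 table with 1 column per group. That each is a mean of 3 libraries is read from the values: 99.9955% in the IVF and SCNT columns are whole multiples of 0.01 divided by 3, within 0.001 on the value times 300. Per the submitters' processing notes, bcl2fastq 2.16, HISAT 0.1.6, StringTie 1.0.4, Bowtie2 2.2.5 and RSEM 1.2.12 were used with build UMD3.1; their roles, and the annotation and filters, are not stated in the labels or the file. Depth and precision are unknown, since a mean FPKM holds no read total, and amplified cDNA from few cells can distort weak loci.

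Differences were taken as log2(FPKM + 1) of SCNT minus IVF and counted at 2-fold, a rule of size that understates differences of low loci. Centring subtracts the median difference. Alternatives were pseudocounts of 0.1 and 5, columns rescaled to a sum of 1000000, quantile normalization, no filter, a mean FPKM of at least 5, a 4-fold limit, 1 locus kept of each set with identical values (7 sets of 2), and Ensembl IDs only. The counting code was tested on simulated data. Planned limma tests, gene lists and markers were left out for lack of replicate values and symbols. The rule, levels and lists were chosen with earlier results of these data known. IDs named are the 5 most abundant per group, and the 2 most different each way among Ensembl IDs at 5 FPKM or more and at 100 or more (over 0 in both groups). Chosen later were the 2 most different each way among all the authors' own loci compared, without these limits. Python 3.11.15, numpy 2.4.6, pandas 2.3.3 and matplotlib 3.10.9 were used.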

Additional observations from a re-analysis of the deposited data

How the results depend on the processing

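Each value rests on 2 group means, so these alternatives show how choices of processing move it and nothing about the spread between libraries. The count of loci 2-fold apart, 8897, was 4833 at a pseudocount of 5, 5086 at a mean FPKM of at least 5 and 3494 at a 4-fold limit; under the other scalings and filters it stayed within 1.5 times. The share of these loci that was higher in SCNT, 38.8%, turned to 58.6% after centring on the median. It was 43.6% at a pseudocount of 5, 34.4% with columns rescaled to equal sums, 46.9% after quantile normalization, 43.1% at a mean FPKM of at least 5 and 44.8% at 4-fold. Of alternatives added after seeing the data, centring on loci at a mean level of 5 or more gave 33.9%, and rescaling without the most abundant IVF locus 31.7%. The median difference, -0.52, was -0.24 at a pseudocount of 5, -0.28 after quantile normalization, -0.0911 without a filter and -0.31 at a mean of at least 5. The difference between strong and weak loci, 1.01, was 0.54 at a pseudocount of 5 and 0.27 after quantile normalization. Ranked by IVF it was -1.25, by SCNT 2.33 and, as an added alternative, by SCNT with KDM5B 2.198. Without a filter the median of loci under a level of 2 was -0.0566. The authors' own loci 2-fold apart, 2046, numbered 617 at a pseudocount of 5, 553 at a mean of at least 5 and 662 at 4-fold, with 312 higher and 305 lower in the first and 284 and 269 in the second. Loci in IVF and nearly absent from SCNT, 473, numbered 83 at 10 FPKM and 10 where SCNT was listed at 0; the reverse, 419, numbered 200 and 34. Fewer loci can pass the stricter limits by construction; for the scalings the cause was not tested. No paired analysis was possible because each column is a mean over its group, and leaving out replicates was not run for the same reason.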
